A study of Homo sapiens with 6 samples.

Results

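Among the regions bound by SMARCA4 in K562 cells, the promoter peaks that carry many G-quadruplex (G4) motifs were described. A member was a region of the deposited list (hg19) that overlapped the window of 1 kb either side of the 5' end of a protein-coding gene and wholly contained at least 4 G4 motifs. A G4 motif was a sequence with 4 guanine runs, each of 3 or more, and loops of 1 to 7 bases between them, counted on both strands without overlap within a strand. Of the 28265 peaks, 9335 overlapped such a window, and 419 of these were members. The members made up 4.49% of the promoter peaks (95% Wilson interval 4.09 to 4.93%) and 1.48% of all peaks. The cells, K562, are an established line from human chronic myelogenous leukaemia, and the experiment consisted of 3 SMARCA4 ChIP libraries and 3 input libraries. In ChIP-seq an antibody pulls down a protein with the DNA fixed to it for sequencing, and an input is chromatin sequenced without the pull-down. Fixation was a double step, disuccinimidyl glutarate (2 mM, 30 min) followed by formaldehyde (1%, 10 min), and sonication gave fragments of 150 to 400 bp. The list pools the replicates and holds positions only, so no SD between replicates, peak height or read depth stands behind any value. Intervals cover counting error only, and neighbouring regions are not independent replicates. The replicates are called biological in the study's text and technical in the deposited description, and p-values measure the spread over regions, not over cultures.

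SMARCA4 (BRG1) is an ATPase subunit of the SWI/SNF remodelling complexes, which use ATP to slide or evict nucleosomes and are found at promoters and enhancers. A G4 is a stacked structure that guanine-rich single strands can fold into. On a gene, runs of guanine may lie on the coding (non-template) strand, and so also in the RNA, or on the template strand that RNA polymerase reads. A motif marks a sequence able to fold, and the peak list carries no information on folding.

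Motifs from 4 member peaks are shown first, since the sets named below for strand or density turn on them. They are not typical of members: in 3 of the 4 all motifs lie on 1 strand, and none has all its motifs upstream. Each is written 5' to 3' on the strand that holds its guanine runs, with the guanines of runs of at least 3 in capitals, after the gene's name and the distance in bp of the motif's centre from the gene start. A loop can itself be a guanine inside a longer run. PRAME, which encodes a cancer-testis antigen, had 10 motifs in 1 peak (chr22:22900640-22902085), all on the template strand and in the first intron, 646 to 1094 bp after the start. Of these, 4 with mostly short loops are given.
PRAME 771: GGGGGGtgaGGGGtGGGGatGGG
PRAME 847: GGGttGGGGaGGGGGaGGG
PRAME 919: GGGaaacaGGGtGGGGGtGGGG
PRAME 1094: GGGtGGGGGaGGGGtGGGG
In the peak at CTCFL, the testis-specific paralogue of the insulator protein CTCF, 8 motifs of 28 or 29 bases recurred with similar letters (chr20:56100484-56101638), again all on the template strand. Their centres lay from -790 to 140 bp, and those centred at -396 and -453 were identical.
CTCFL 140: GGGaggaGGGccccgcaGGGGGcgctGGG
CTCFL 89: GGGcacgaGGGcctgcaGGGGGcctGGG
CTCFL -270: GGGGaggaGGGtctgcaGGGGttcttGGG
CTCFL -328: GGGGaggaGGGtctgcaGGGGGccctGGG
CTCFL -396: GGGGaggaGGGcctgcaaGGGGtgctGGG
CTCFL -453: GGGGaggaGGGcctgcaaGGGGtgctGGG
CTCFL -622: GGGGaGGGGGtcctgcaGGGGGcgctGGG
CTCFL -790: GGGGaagaGGGccctcaGGGGGcgctGGG
At AGPAT3, an acyltransferase of phospholipid synthesis, all 6 motifs lay in the first intron on the coding strand (chr21:45285311-45285968), and the 5 of at most 30 bases are given.
AGPAT3 299: GGGGcgcGGGGcctGGGaaggcgcGGGG
AGPAT3 471: GGGaGGGGcccGGGccGGG
AGPAT3 497: GGGaGGGcgagtGGGttcccgcGGGG
AGPAT3 692: GGGGaGGGctgcGGGGcccGGGG
AGPAT3 756: GGGcGGGtcaGGGGatGGGG
The peak at ERFE was the densest in motifs, with 5 in 277 bp (chr2:239067415-239067691). ERFE encodes erythroferrone, the hormone by which erythroblasts lower hepcidin. Of its motifs 4 lay upstream of the start, and the one 45 bp after it lay in coding sequence.
ERFE -175: GGGGcaGGGcaGGGagagcgaGGGG
ERFE -147: GGGGGagtGGGGGaGGGGGcacGGGG
ERFE -119: GGGGatGGGGGGagtgtccGGGcGGGGG
ERFE -81: GGGagccGGGaGGGGGcgcGGG
ERFE 45: GGGGcggcGGGccGGGGccatgcGGG

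**Figure D1:**
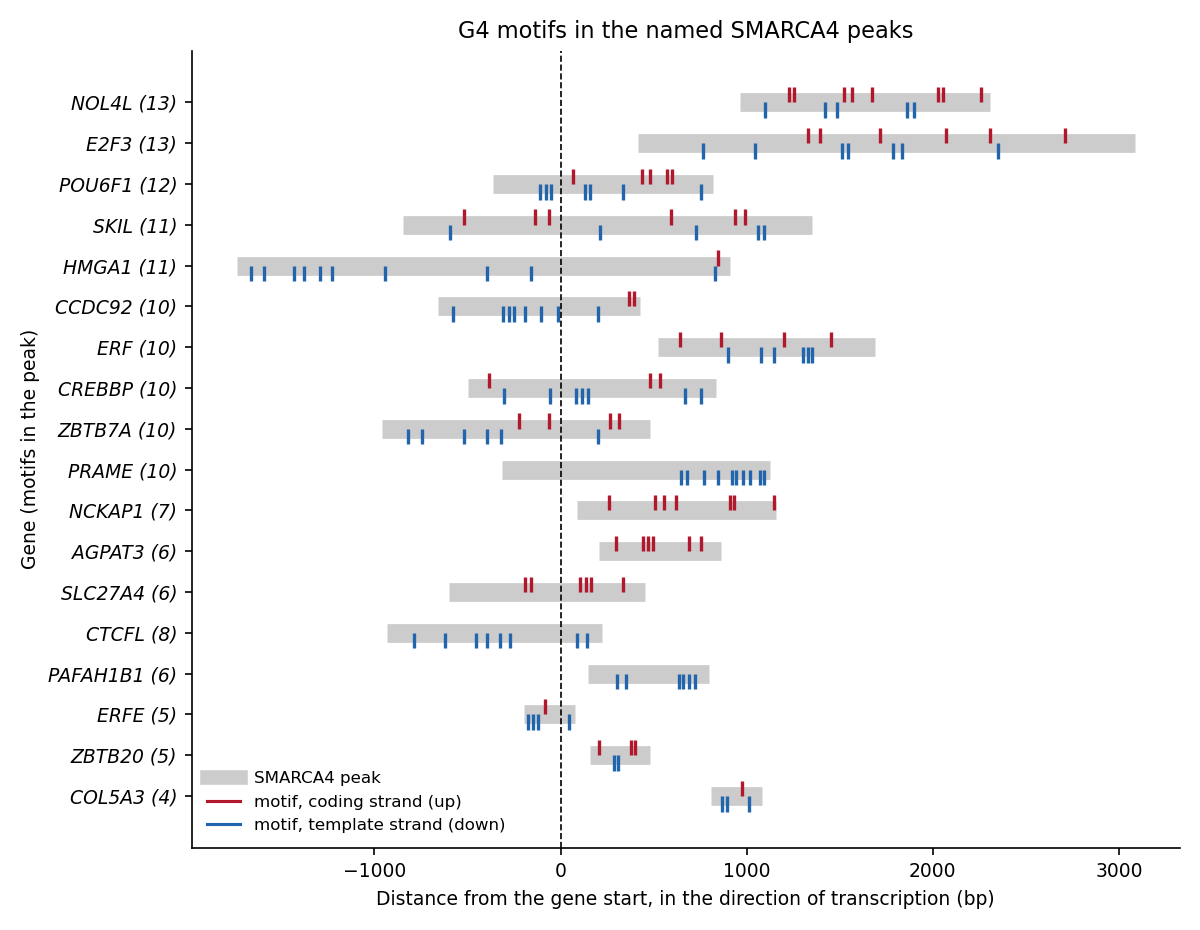
The 18 peaks named for most motifs, for motifs on 1 strand or for most motifs per kb, drawn to scale against the gene start (dashed line, distance in bp in the direction of transcription). Grey bars are SMARCA4 peaks and ticks are motif centres on the coding strand (red, up) or the template strand (blue, down), as in PRAME, where all 10 point down and lie after the start.

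The members touched the starts of 471 of the 20163 coding genes, a background share of 2.34%, whereas 42.3% of coding genes had a SMARCA4 peak of any kind at their start. Since the number of motifs chose the members, their motif numbers and widths are a description only. Most members sat near the minimum: 213 held 4 motifs, 103 held 5, 50 held 6 and 53 held more, up to 13. Just below the minimum were 424 promoter peaks with 3 motifs. The 419 members contained 2114 motifs, 28.5% of the 7425 in all promoter peaks. A further 156 peaks with at least 4 motifs lay away from coding gene starts and were not members. Of the 2114 motifs 2094 were distinct in sequence, and no sequence occurred in more than 3 members, so members did not share 1 repeated sequence. With loops of up to 12 bases allowed the members numbered 1181, with peaks at most 500 bp apart merged 639, with a minimum of 3 motifs 843 and with a minimum of 5 motifs 206.

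Member peaks were wide and rich in GC. Their median width was 1084 bp (95% interval of the median 1024 to 1137 bp), against 569 bp for promoter peaks with 1 to 3 motifs and 339 bp for those with none. A wide peak has more room for motifs, so width and motif number are tied by the rule. Peaks with none went down to 1 bp, below the 15 bases of the shortest member motif, so some could hold no motif. Keeping only peaks of at least 200 bp was among the alternatives. Median motif density was 4.70 per kb, ranging from 1.51 to 18.1. Median GC content was 72.7% in members, 69.2% in peaks with 1 to 3 motifs and 61.9% in those with none. The criteria of a CpG-rich region (GC of at least 50% and an observed over expected CpG ratio of at least 0.6) were met by 97.1% of members, 91.9% of peaks with 1 to 3 motifs and 73.2% of those with none. The peaks at CTCFL and PRAME were among the exceptions, with CpG ratios of 0.247 and 0.420. Among members, median width went from 1009 bp with 4 motifs to 1505 bp with 8 to 13, and median GC from 71.6% to 75.2%. Neighbouring motifs of a member were a median of 83 bp apart, and 38.3% of the neighbouring pairs were at most 50 bases apart. A pair lay on the same strand in 60.9% of cases, and 3 pairs overlapped on opposite strands.

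The 10 peaks with most motifs, ties taken by density, held 10 to 13 each. NOL4L and E2F3, a cell-cycle transcription factor, had 13 motifs each, in both cases all in the first intron. The NOL4L peak (chr20:31170827-31172172) was 1346 bp wide with 80.1% GC, and that of E2F3 (chr6:20402525-20405196) 2672 bp with 64.3% GC. POU6F1, a POU-domain factor, had 12 motifs in 1185 bp, of which 3 lay upstream, 4 in the 5' untranslated exon and 5 in the first intron. SKIL, a repressor in SMAD signalling, and HMGA1, an architectural protein of chromatin, had 11 each. At HMGA1 10 of the 11 motifs were on the template strand and 9 lay upstream, between -1663 and -159 bp. A further 8 peaks held 10 motifs each, and the 5 with most per kb lay at CCDC92, whose window also holds the starts of ZNF664 and RFLNA, at ERF, an ETS-family repressor, at CREBBP, a histone acetyltransferase, at ZBTB7A, a repressor of fetal globin, and at PRAME. ZBTB7A had a second member peak further into the gene, with 4 motifs and 85% GC. The highest densities after ERFE were 15.3 per kb at ZBTB20, a zinc finger repressor, and 14.5 per kb at COL5A3, a collagen chain.

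Most members had motifs on both sides of the gene start, and motifs were densest just before it. In 237 members (56.6%, 51.8 to 61.2%) motifs lay on both sides of the start, in 127 (30.3%) all lay downstream and in 55 (13.1%) all upstream. The motif nearest to the start was within 100 bp of it in 55.4% of members. Of the 2114 motifs, 39.3% were upstream of the gene's 5' end and 30.9% in the first intron of the canonical transcript. Another 14.3% lay in the gene before that transcript began, 12.2% in its 5' untranslated exons, and 1.61% in coding sequence. Among the 5311 motifs of promoter peaks with 1 to 3 motifs, 44.5% were upstream and 24.1% in the first intron, a difference that was not tested. Counted per kb of sequence covered by the peaks, density was highest in the 100 bp before the start, at 4.53 coding-strand and 3.39 template-strand motifs. It was 1.88 and 1.67 in the 100 bp after the start. Between 400 and 500 bp after the start the strands stood furthest apart within the first kb, at 3.16 and 1.26 per covered kb.

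**Figure D2:**
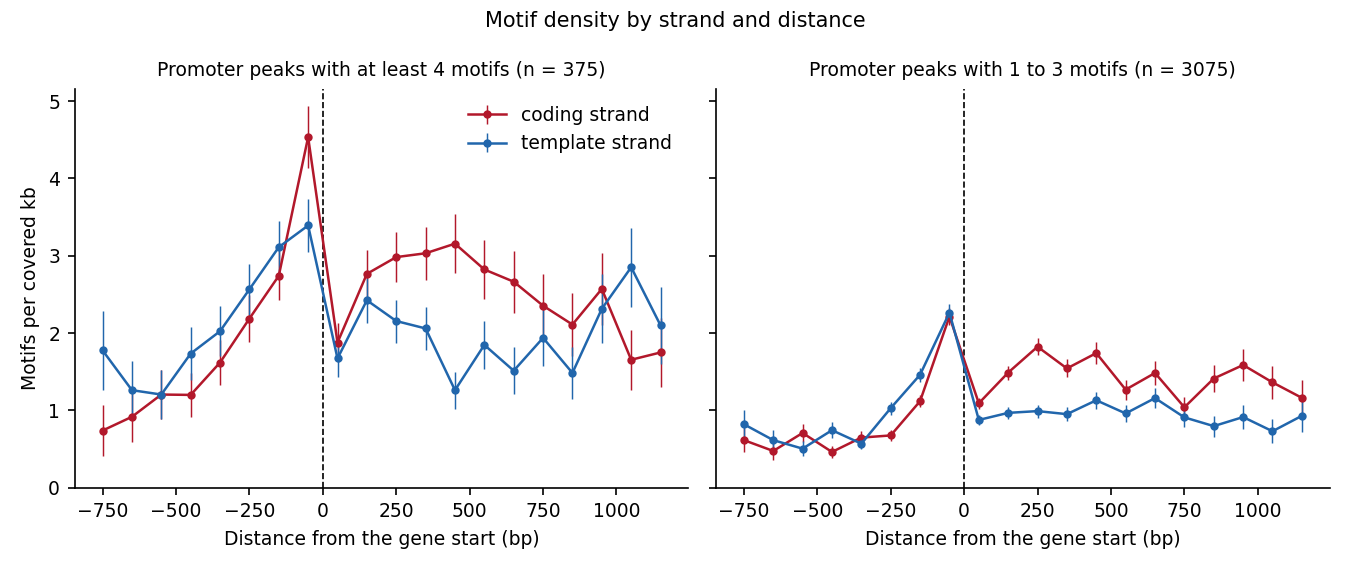
G4 motifs per kb of sequence covered by peaks (y axis), in steps of 100 bp from the gene start (x axis, bp), on the coding (red) and template (blue) strand, for peaks with gene starts on 1 strand: 375 members (left) and 3075 promoter peaks with 1 to 3 motifs (right). Error bars are the square root of the motif count and cover counting error only, and in both panels density drops across the start and the coding strand lies above the template strand through the first kb after it.

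Strand was compared with 1 vote per peak, since motifs of a peak are not independent. A peak voted for the strand of the gene that held more of its motifs, and ties were left out. The question was whether G-runs in members favour the coding or the template strand. Of the 375 members with gene starts on 1 strand only, 175 voted coding and 123 template, with 77 ties (58.7% coding, 53.1 to 64.2%, Benjamini-Hochberg adjusted p = 0.0046, two-sided exact binomial test, 3 tests). The preference was found for motifs downstream of the start, where 177 peaks voted coding and 105 template (62.8%, 57.0 to 68.2%, adjusted p = 6.43e-05, exact binomial). Upstream the votes were 110 to 106 (50.9%, 44.3 to 57.5%, adjusted p = 0.838, exact binomial), and the upstream share fell below 50% in 3 alternatives, with a minimum of 3 or of 5 motifs and with loops of up to 12 bases. With at least 5 motifs as the minimum, the shares were 53.4% for all and 59.1% for downstream motifs, and neither passed the threshold of 0.05.

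No difference in strand between members and promoter peaks with fewer motifs was detected. In promoter peaks with 1 to 3 motifs 61.9% of the downstream votes were coding, 0.905 percentage points below the members (difference interval -5.30 to 6.82, adjusted p = 0.792, Fisher's exact test). Neither did the upstream votes (46.7%, adjusted p = 0.41) or all votes (55.1%, adjusted p = 0.41) differ beyond the threshold in the same 3 Fisher's exact tests. A further comparison, chosen after the data were seen, took start windows with at least 4 motifs and no SMARCA4 peak. There 58.6% of the downstream votes were coding, against 62.3% in windows of member genes (difference 3.74 points, -2.49 to 9.71, adjusted p = 0.479, Fisher's exact test over 2 tests). When every coding transcript start was used in place of the gene's 5' end, with windows that overlap within a gene, this difference was 6.16 points and passed the threshold. By motif number, the downstream share was 59.8% coding with 3 motifs, 67.2% with 4, 61.1% with 5, 54.7% with 6 or 7 and 62.1% with 8 to 13, in no order.

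All motifs lay on 1 strand in 72 members (17.2%, 13.9 to 21.1%), of which 41 had the minimum of 4. Of the 62 with gene starts on 1 strand, 42 were wholly coding. The largest coding sets were at NCKAP1, a subunit of the WAVE complex of actin assembly, with 7, and at AGPAT3, SLC27A4, a fatty acid transporter, and ELF2, an ETS-family factor, with 6 each. On the template side stood PRAME with 10, CTCFL with 8 and 6 genes with 6, of which PAFAH1B1, a regulator of dynein, had most per kb. In the NCKAP1 peak (chr2:183902426-183903499) all motifs were downstream, from 258 to 1145 bp: 1 before the canonical transcript, 3 in its 5' untranslated exon and 3 in its first intron. SLC27A4 (chr9:131102206-131103259) had 2 upstream and 4 downstream. The 6 motifs of PAFAH1B1 (chr17:2496650-2497302) lay 305 to 720 bp after the start.

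Members were less often at gene starts on both strands than peaks without a motif. Coding starts on both strands were found in 44 of 419 members (10.5%, 7.92 to 13.8%), in 12.7% of peaks with 1 to 3 motifs and in 15.4% of those with none. The difference from peaks without a motif passed the threshold (-4.90 points, -7.67 to -1.47, adjusted p = 0.00678, Fisher's exact test over 6 tests), and that from peaks with 1 to 3 motifs did not (-2.17 points, adjusted p = 0.24; -2.99 points and past it with peaks at most 500 bp apart merged). Within classes of like peak width the Mantel-Haenszel odds ratio, which pools the comparison over the classes, was 0.523 (0.357 to 0.766) against peaks without and 0.640 (0.451 to 0.906) against peaks with 1 to 3 motifs. The gene start lay inside the peak in 78.8% of members, 67.8% of peaks with 1 to 3 motifs and 50.2% of peaks with none (adjusted p = 9.72e-06 and 1.6e-30, Fisher's exact test). A start of a long non-coding RNA within 1 kb was found for 31.3%, 24.3% and 22.3% (adjusted p = 0.0035 and 0.000102, Fisher's exact test). Within width classes neither difference passed the threshold, and the first turned: the odds ratios were 0.775 (0.592 to 1.02) and 0.819 (0.611 to 1.10) for the start inside the peak, and 1.11 (0.880 to 1.41) and 1.04 (0.804 to 1.36) for the non-coding RNA.

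Short sequences known from promoters were searched on either strand from 250 bases before to 50 after the coding gene start nearest to each peak, a window that does not depend on peak width. They were CCAAT (NF-Y), CCGGAAG (ETS factors), CGCATGCGC (NRF1), TGACGTCA (CRE), CACGTG (E-box), GGGCGG (SP/KLF factors), GATAAG (erythroid GATA factors) and AAGATGGCG (YY1), and TATAAA on the coding strand 40 to 20 bases before the start. A match is a string of letters, not a bound site. The unit was the peak, so a gene start nearest to several peaks was counted for each of them. Such a start can also stand in more than 1 group. No count with 1 peak per gene start was made, and the p-values treat these peaks as separate. The ETS sequence was less frequent at members than in either other group of peaks. It was found at 34 of 419 members (8.11%, 5.86 to 11.1%), at 15% of peaks with 1 to 3 motifs (difference -6.85 points, -9.41 to -3.63, adjusted p = 0.000487) and at 20.7% of peaks with none (-12.6 points, -15.1 to -9.36, adjusted p = 1.22e-10, Fisher's exact test over 18 tests). Over all coding genes the share was 11.8%. Within GC classes of 2 percentage points the odds ratios were 0.545 (0.378 to 0.786) and 0.404 (0.281 to 0.581). Among the 34 were YWHAZ with 9 motifs, a 14-3-3 protein, and FBXO11 and IQANK1 with 6 each, named after their values were seen.

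The ETS share was lower the more motifs the peak held, in counts made after this difference was seen. It was 20.7% with no motif, 16.9% with 1, 12.1% with 2, 11.3% with 3, 9.86% with 4, 8.74% with 5 and 3.88% (4 of 103, 1.52 to 9.56%) with 6 or more. The same was looked for at coding gene starts without a SMARCA4 peak. There the share was 5.18% (4.59 to 5.83%) in windows with no motif, 8.41% (7.66 to 9.21%) with 1 to 3 and 5.67% (4.68 to 6.86%) with at least 4. The last differed from the first by 0.490 points (-0.697 to 1.81, p = 0.456, Fisher's exact test). Within GC classes, however, the odds ratio at these unbound starts was 0.376 (0.270 to 0.523), so at like GC the sequence was also less frequent beside many motifs where no peak was called. The difference in shares at unbound starts rose to 2.82 points with loops of up to 12 bases (p = 5.46e-08, Fisher's exact test). With all coding transcript starts it was -3.05 points, but the ETS sequence was still searched at the gene's 5' end. A gene with several transcript starts then entered repeatedly. That value is therefore not a share at the transcript starts, and its test is not used. In windows with a peak the shares were 25.7% with no motif, 19.0% with 1 to 3 and 11% with at least 4.

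For the other sequences, GGGCGG was found at 82.8% of members, 77.9% of peaks with 1 to 3 motifs and 64.0% of those with none, against 52.1% of all coding genes. It can lie inside a G4 motif and did so in 48.3% of the members' motifs, so its share is tied in part to the rule and is a description, and its tests, though among the 18, are not used. Within GC classes the odds ratios were 0.951 (0.673 to 1.35) and 1.19 (0.848 to 1.66). CCAAT was at 33.9% of members, 33.4% and 39.2% of the other peaks and 35.8% of all genes. The E-box was at 10.3%, 11.5% and 10.2%, beside 8.33% of all genes. GATAAG was at 4.53%, 3.61% and 4.34% and at 5.75% of all genes. Its odds ratio against peaks without a motif was 2.03 (1.23 to 3.37) within GC classes, while the shares themselves did not differ past the threshold. The YY1 sequence was at 2.63%, 3.01% and 3.82% and at 1.86% of all genes. The CRE was at 2.15%, 3.61% and 3.58%, beside 2.29% of all genes, and the NRF1 sequence at 1.91%, 3.04% and 4.17%, beside 2.35%. TATAAA was at 6 members (1.43%), against 1.05% and 1.13% of the other peaks and 2.79% of all genes. None of the 14 tests on these 7 sequences passed the threshold, their adjusted p-values running from 0.0723 to 0.933 (Fisher's exact test). Against peaks without a motif, CCAAT, NRF1 and YY1 passed it in some alternatives, each with a lower share in members. The 6 members with TATAAA were at ELAVL3, MKNK2, CEBPB, PABPC4, PIEZO1 and ZC3H12A.

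**Figure D3:**
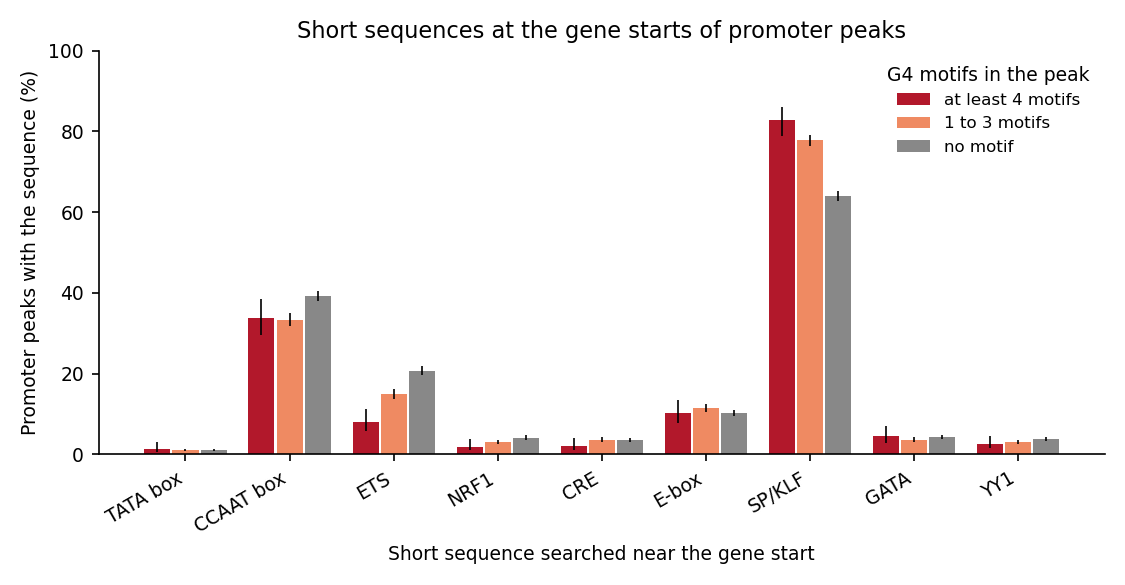
Share of promoter peaks (y axis, percent) whose nearest coding gene start has each short sequence (x axis), for members (red), peaks with 1 to 3 motifs (orange) and peaks with none (grey). Bars carry 95% Wilson intervals, and the share runs from 20.7% (none) to 8.11% (members) for the ETS sequence; the share of GGGCGG is tied in part to the rule.

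The make-up of single motifs was compared on the motif nearest to the centre of each peak. All 3 loops were at most 3 bases long in 18.1% of members (14.7 to 22.1%) and 23.5% of peaks with 1 to 3 motifs, a difference of -5.35 points (-9.03 to -1.15, adjusted p = 0.0415, Fisher's exact test over 3 tests). The call was lost in 5 alternatives, at -1.65 to -5.40 points, and turned to 0.615 points with loops of up to 12 bases. A run of at least 5 guanines was in 48.0% and 43.9% (adjusted p = 0.119), and a first or last loop of 1 base in 51.1% and 55.5% (adjusted p = 0.119, Fisher's exact test). Over all 2114 motifs of the members the share with short loops was 23.3% (21.5 to 25.1%), above that of the central motifs. The same share over all motifs of the other peaks was not computed, so whether the difference holds over all motifs was not tested. The members' motifs had a median length of 24 bases, from 15 to 38, and 33.0% of their loops were of 1 base.

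To ask whether many motifs go with a peak at all, every coding gene start was classed by the motifs in its window, whether or not a peak was there. A peak overlapped 29.5% of the windows with no motif, 46.7% with 1, 49.0% with 2, 50.3% with 3, 51.9% with 4 or 5, 51.4% with 6 or 7 and 49.9% with 8 or more. Over all windows the share was higher with 1 motif than with none and nearly level after it, but this did not hold in every band of GC content. In windows under 50% GC the share went from 16.2% with no motif to 28.9% with 1, 30.7% with 2, 41.9% with 3 (31 of 74) and 38.1% with 4 or 5 (8 of 21). In those of 50 to 60% GC it was 50.7% with no motif, 50.9% with 1, 48.9% with 2, 48.3% with 3, 49.1% with 4 or 5, 46.4% with 6 or 7 and 41.9% with 8 or more (13 of 31). In windows of 60 to 70% GC it was 53.7% with no motif, 57.3% with 1, 55.6% with 2, 52.7% with 3, 53.6% with 4 or 5, 51.4% with 6 or 7 and 45.4% with 8 or more. In those of at least 70% GC it was 62.5% with 1 motif (10 of 16), 50% with 2 (11 of 22), 60.4% with 3, 52.0% with 4 or 5, 55.6% with 6 or 7 and 58.7% with 8 or more. Windows with at least 4 motifs had a peak in 51.5% of cases (1853 of 3599) and those with 0 to 3 in 40.3% (difference 11.2 points, 9.36 to 12.9, p = 3.01e-34, Fisher's exact test). Within GC classes the direction turned, with a Mantel-Haenszel odds ratio of 0.898 (0.822 to 0.982). Against windows with 1 to 3 motifs, a comparison chosen after the data were seen, the shares were 51.5% and 48.2% (p = 0.000883, Fisher's exact test; 1.76 points and not past the threshold with windows of 500 bp either side), and the odds ratio within GC classes was 0.901 (0.823 to 0.987). Of the 3599 windows with at least 4 motifs, 414 belonged to a gene with a member peak (11.5%, 10.5 to 12.6%), or 22.3% of the 1853 that had any peak. Within the windows of the members' own genes 79.3% of the motifs were inside a peak, while peaks covered 54.1% of the bases; members were chosen for motifs inside the peak, so this is a description.

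**Figure D4:**
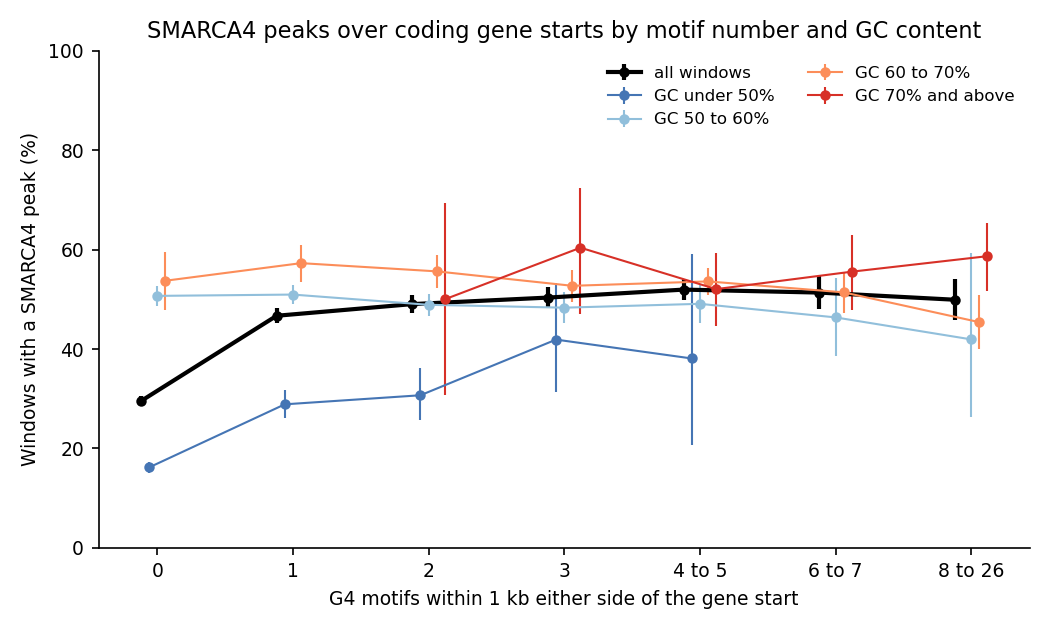
Share of coding gene starts with a SMARCA4 peak within 1 kb (y axis, percent) by the number of G4 motifs in that window (x axis), for all windows (black) and in bands of GC content (colours), with 95% Wilson intervals; bands with fewer than 20 windows are left out. Over all windows the share rises from 29.5% with no motif to 46.7% with 1 and stays near 50% from 2 motifs on.

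The members' genes were then read through 16 gene lists, as counts beside the 2.34% of all coding genes with a member peak and the 42.3% with any peak. SP/KLF factors, which bind GC-rich promoter boxes, had the highest share, 6 of 27 (22.2%, 10.6 to 40.8%), with 16 of 27 having any peak. They were KLF6 with 10 motifs, KLF16 with 9, KLF3 with 8, SP3 with 7, and KLF1 and SP1 with 5 each. At KLF6 8 of the 10 motifs were on the coding strand, and at SP1 4 of 5 on the template strand. KLF1, the erythroid factor of the family, had its 5 motifs 706 to 1952 bp after the start. Enzymes that modify histone lysines and carry a KMT, KDM, KAT or HDAC symbol followed with 5 of 46 (10.9%, 4.73 to 23%): the methyltransferases KMT2C with 8 motifs, KMT2B with 5 and KMT5B with 4, the deacetylase HDAC11 with 5 and the demethylase KDM2A with 4. In this list 32 genes had any peak. Members at genes of related function whose symbols fall outside it were not counted. Examples, named after their values were seen, are CREBBP with 10 motifs, NSD2 with 7, and SETD2, SETD5 and JMJD1C with 4 each. The lists are short, and KLF1 and SP1 each stand in 2 of them.

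SWI/SNF subunits themselves had 2 of 28 (7.14%, 1.98 to 22.6%), an interval that holds the 2.34% of all coding genes. Any peak was found at 22 of them, and 9.09% of these had a member, beside 5.52% over all coding genes with a promoter peak. The 2 were BICRAL, of the GBAF form of the complex, with 7 motifs, all downstream of the start, and PBRM1, of the PBAF form, with 4, all downstream and on the coding strand. G4 helicases and G4-binding proteins also had 2, of 26 (7.69%, 2.14 to 24.1%): SP1 and MAZ, a zinc finger protein that binds G-rich DNA, whose 6 motifs were all on the template strand between 271 and 895 bp after the start. The MAP kinase cascade had 2 of 43 (MAP3K6 and MAP4K2, 4 motifs each) and SOX, FOX and PAX factors 2 of 73 (FOXO3 with 5, FOXN2 with 4). HOX genes had 1 of 39 (HOXB9 with 4), erythroid factors and heme synthesis 1 of 22 (KLF1) and potassium channels 1 of 94 (KCNH6 with 4). Of the large families, numbered zinc finger genes had 10 of 476 (2.10%, 1.15 to 3.82%), led by ZNF664 and ZNF652 with 10 and 7 motifs. Solute carriers had 10 of 368 (2.72%, 1.48 to 4.93%), led by SLC27A4. Both shares lie close to that of all coding genes.

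No member was found in 5 lists, some of which were widely bound. Over all coding genes the share with a member was 2.34%, and over those with a promoter peak 5.52%. Except for olfactory receptors, the intervals below hold 2.34%, so a count of 0 was not told apart from that share. The comparison with 5.52% was not tested. Cytosolic ribosomal proteins had a peak at 73 of 86 starts and a member at none (0 to 4.28%). For proteasome subunits it was 30 of 39 (0 to 8.97%) and for histone genes 43 of 70 (0 to 5.20%). The histone list holds the genes with symbols of the H1, H2A, H2B, H3 and H4 clusters and the numbered H1 genes. Variant histone genes outside it did have members, H3-3A and MACROH2A1 with 4 motifs each, named after their values were seen. Of the 18 oncogenes known for promoter G4s 8 had a peak and none a member (0 to 17.6%). Olfactory receptors had a peak at 4 of 399 starts (0 to 0.954%). With all coding transcript starts in place of the gene's 5' end, the oncogenes had 1 member gene and the erythroid list 2.

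**Figure D5:**
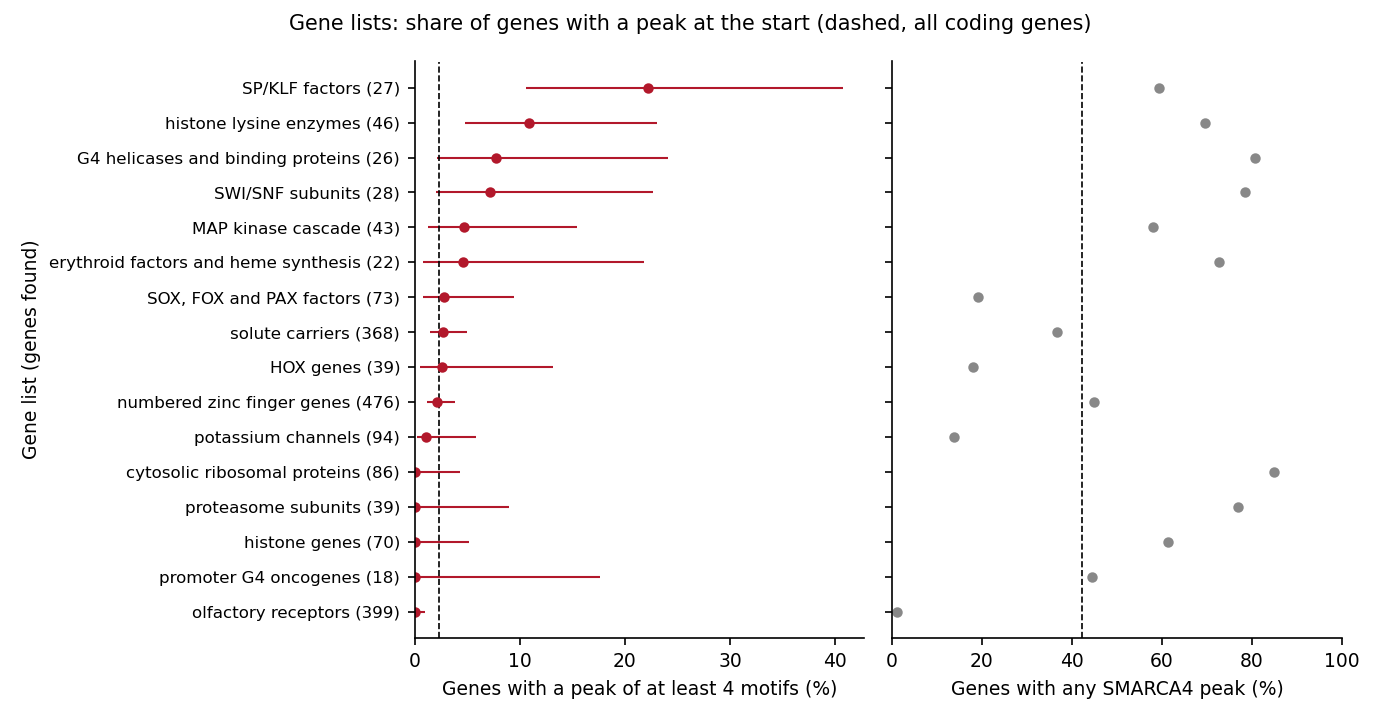
Share of the genes of each list (y axis, number of genes found in brackets) with a member peak at the start (left, percent, 95% Wilson intervals) and with any SMARCA4 peak (right, percent). Dashed lines are the shares of all coding genes, 2.34% and 42.3%. SP/KLF factors stand highest on the left with 22.2%. Ribosomal protein genes stand highest on the right with 84.9% and at 0 on the left, where their interval holds 2.34%.

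None of 14 genes named in the study's text was among the members. For so few genes a count of 0 is near the 2.34% of all coding genes. XYLB, LARP1 and TMCO6 are browser examples of the study, and the others are named there as candidate proteins or for oligonucleotides. XYLB and LARP1 had 1 promoter peak each with 2 motifs, and TMCO6, taken to be the gene printed as TMCC6, had 2 peaks with at most 3 motifs in one. MYC had 5 motifs in its start window and 3 promoter peaks, but at most 2 motifs in a peak. HMGB2, a chromatin protein, had 4 motifs in its window and 1 in a peak. SMARCA4 and NRAS had a peak with 1 motif, DDX1 had 3 peaks with at most 1, and the peaks at RBM22 and TTF2 held none. UHRF1, DDX24, KIT and BCL2 had no peak at their start. As a check of the cell line, all 12 erythroid and megakaryocytic marker genes had a SMARCA4 peak at the start, GATA1, TAL1 and HBG1 among them. The share over all coding genes was 42.3%. Of the other markers, 0 of 8 lymphoid, 0 of 2 hepatic and 1 of 2 neural genes (SYN1) had one. In the gene list of erythroid factors and heme synthesis, 16 of 22 genes had any peak.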

How the data were processed

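The deposited file lists SMARCA4 regions as positions in bp on hg19 and holds no value per replicate. Before deposition the authors trimmed and aligned the reads, removed duplicates, called MACS2 peaks in each replicate against input at a q-value threshold of 0.05, and kept regions found in at least 2 of 3 replicates. ChIP and input libraries were told apart by title and antibody, since a free-text field of the ChIP samples names a G4 ChIP.

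G4 motifs were searched in the hg19 genome with the shortest loops matched first. Of 4 forms of this search tried, this one gave the genome count of an earlier description (381293 motifs). Longest loops first is an alternative. Gene starts, lncRNA starts and transcripts came from GENCODE 44 lifted to hg19, and the letters near starts from the same genome. The 19 coding starts without sequence were left out of the window counts. Tests were two-sided Fisher's exact or exact binomial tests with Benjamini-Hochberg adjustment within each family and a threshold of 0.05. Mantel-Haenszel odds ratios used classes of 2 GC points or of peak width. Scripts ran in Python 3.11.15 with numpy 2.4.6, scipy 1.17.1 and matplotlib 3.10.9, and were tested on simulated data.

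Members and gene lists were chosen with earlier results of these data known, among them a lower share of the ETS sequence in peaks with a motif, so that pattern is no independent support. Comparisons added after the data were seen were windows against those with 1 to 3 motifs, strand and the ETS sequence in windows without a peak, the ETS share and strand by motif number, bands of GC content, and longest-loop matching. Named genes were those at the 10 peaks with most motifs, the 3 largest sets on either strand, the 3 densest peaks, up to 3 per gene list and 14 genes of the study; other names were added after their values were seen. Endogenous G4 sites and signal tracks were not used here, and 1 gene list, 1 gene and 1 motif sequence are not reported here.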

Additional observations from a re-analysis of the deposited data

How the results depend on the processing

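No paired analysis was possible because the list pools the replicates, and no replicate could be left out for the same reason. Read depth is not in the list. Of 483 alternative values of comparisons, counts and lists 408 kept their direction and side of the threshold or their size, as did 236 of 258 descriptions and single peaks. The ETS difference at promoter peaks did so in every alternative, at -8.37 to -4.26 points against peaks with fewer motifs. Differences are in percentage points, members minus the peaks named, and "fewer" means promoter peaks with fewer motifs. Other choices of motif minimum, loop length and merging change the members by construction, and the cause of the other changes was not tested. GGGCGG can lie inside a motif, so its values below are tied in part to the rule and support no call.

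With a minimum of 3 motifs there were 843 members at 943 genes. Short loops differed by -1.69 (no longer past the threshold), and downstream strand against fewer turned to -0.809, upstream strand to 48.5% coding, CCAAT against fewer to -2.08 and GATA against none to -0.0669. Now past the threshold against none were CCAAT (-7.41), NRF1 (-1.80) and YY1 (-1.68).

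With a minimum of 5 motifs there were 206 members at 231 genes. No longer past the threshold were strand over all motifs (53.4% coding), downstream strand (59.1%), short loops (-1.65) and the start inside the peak against fewer (3.53). Turned were upstream strand (45.0% coding), strand against fewer over all (-2.11), downstream (-3.14) and upstream (-2.49), E-box against none (-2.93), TATA against fewer (-0.127) and none (-0.160), YY1 against fewer (0.452) and ETS in windows without a peak (-0.461).

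With loops of up to 12 bases there were 1181 members at 1327 genes. Turned were short loops (0.615), the 1-base first or last loop (3.27), downstream strand against fewer (-0.771), upstream strand (47.8% coding), CCAAT against fewer (-2.12) and GATA against none (-1.06). Now past the threshold were runs of at least 5 guanines (4.38), CCAAT against none (-7.25), NRF1 against fewer (-1.42) and none (-2.30), GGGCGG against fewer (5.27) and ETS in windows without a peak (2.82).

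With peaks at most 500 bp apart merged there were 639 members at 729 genes. Short loops were no longer past the threshold (-2.22). Turned were downstream strand against fewer (-0.287), E-box (-0.475) and GATA (-1.06) against none. Now past the threshold were CCAAT (-5.18) and YY1 (-1.99) against none and starts on both strands against fewer (-2.99).

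With windows of 500 bp either side, short loops (-5.40) and the window difference against 1 to 3 motifs (1.76) were no longer past the threshold, E-box against none turned (-0.331) and GGGCGG against fewer passed (5.65). With all coding transcript starts, promoter G4 oncogenes had 1 member gene and the erythroid list 2. GATA against none turned (-0.727), as did ETS in windows without a peak (-3.05). GGGCGG against fewer (6.41) and downstream strand against windows without a peak (6.16) passed. These starts give overlapping windows within a gene. The short sequences were still searched at the gene's 5' end, so their values in this setting are not shares at the transcript starts.

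With motifs searched in the peak sequence alone, short loops were no longer past the threshold (-5.20). With motifs overlapping on opposite strands counted once, E-box against none turned (-0.141). With longest loops matched first it was -0.570, and the 1-base first or last loop passed (-6.26).

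As odds ratios within GC classes, CCAAT (1.07) and E-box (0.975) against none, GGGCGG against fewer (0.951), ETS in windows without a peak (0.376) and the window difference against 0 to 3 (0.898) and 1 to 3 motifs (0.901) turned. GATA against none (2.03) passed and GGGCGG against none (1.19) no longer did. Within width classes the start inside the peak turned against fewer (0.775) and none (0.819), starts on both strands against fewer passed (0.640), and the lncRNA start was no longer past the threshold against fewer (1.11) or none (1.04).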

Other observations

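Members were found on every autosome and on chromosome X. The share of promoter peaks that were members was 11.2% on chromosome 21 (12 of 107, 95% Wilson interval 6.53 to 18.6%) and 1.70% on chromosome 15 (5 of 294, 0.729 to 3.92%), the highest and the lowest, beside 4.49% over all promoter peaks. The order of chromosomes was seen before these were picked and was not tested.

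Most members had 1 coding gene start within 1 kb (87.8%), 11.5% had 2 and 0.716% had 3 or more. The string AGGGGGCGC, searched after the motifs at CTCFL had been seen, was in 22 of the 2114 motifs of members, 3 of them at CTCFL. The motifs with it lay in 20 members, which are among the 33 promoter peaks with it in a motif. A member holds more motifs by the rule, so shares of peaks are not compared.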
